A study of Mus musculus with 12 samples.

Results

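Mgll encodes monoacylglycerol lipase, and its RNA was examined here beside that of 8 related lipid hydrolases and endocannabinoid enzymes in mouse melanoma. These 9 genes (Mgll, Abhd6, Abhd12, Dagla, Daglb, Faah, Napepld, Pnpla2 and Lipe) were 9 of 23420 genes in the count table. Mgll was chosen because its level was higher in all obese tumors, and the other 8 were chosen by what their enzymes do. All 9 passed the filter on low counts that left 13095 genes for testing.

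The data were RNA-seq counts from 12 bulk tumors, 3 in each of 4 groups. B16-F10 melanoma cells, a C57BL/6-derived line, had been grown under the skin of male C57BL/6J mice. Obese mice had received a cholesterol-supplemented Western diet for 15 weeks, to a weight gain of 50%, and nonobese mice a matching control diet, both from 4 to 5 weeks of age. Each diet group was given either anti–PD-1 antibody (clone 29F.1A12) or an isotype control antibody (clone 2A3), at 10 mg/kg into the peritoneum, and tumors were taken on day 16. All 4 groups thus carried the same transplanted line and an injected antibody, and diet-induced weight gain was the only obesity model. The labels give each tumor as a separate sample without naming the animal or cage, so the P values describe the spread between these tumors.

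Total counts ran from 14022929 to 33871843 per tumor. The sum of 10 melanocyte and melanoma markers lay between 35505 and 42303 CPM (reads counted for a gene, scaled to a common library total), which places the tissue as labelled, and 0 of these 10 genes was called in any comparison, where called means that edgeR gave P below 0.05 before adjustment and a fold over 2 in either direction. The sum of 10 adipocyte markers was far lower, with 27.1 to 68.5 CPM in nonobese tumors, 20.1 to 39.3 CPM in obese isotype tumors and 55.3 to 124 CPM in obese anti–PD-1 tumors. Macrophage markers summed to between 145 and 496 CPM, fibroblast markers to between 239 and 2910 CPM and skeletal muscle markers to between 9.15 and 629 CPM, so the RNA of host cells was uneven from tumor to tumor. In bulk tumors, fewer cells of a type and less RNA per cell cannot be told apart.

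Endocannabinoids are lipid messengers made on demand from membrane phospholipids. Diacylglycerol lipases α and β (Dagla, Daglb) release 2-arachidonoylglycerol (2-AG), and monoacylglycerol lipase, ABHD6 and ABHD12 split it into arachidonic acid and glycerol. NAPE-PLD (Napepld) makes anandamide and its relatives, and fatty acid amide hydrolase (Faah) breaks them down. Monoacylglycerol lipase also takes the last step of fat mobilization, after adipose triglyceride lipase (Pnpla2) and hormone-sensitive lipase (Lipe) have each removed a fatty acid, and in cancer cells it is known as a source of free fatty acids.

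Most of these enzymes are serine hydrolases, whose active serine lies between glycines in the pattern glycine, any residue, serine, any residue, glycine. The stretches of coding sequence that encode this pattern are shown because they are what the otherwise different members have in common. They were read from the GENCODE coding transcripts (GRCm38), with the serine codon in capitals and its number counted from the start codon.
Mgll, codon 122 of 303: ggccacTCCatgggc
Abhd6, codon 148 of 336: ggcaccTCCatgggt
Abhd12, codon 246 of 398: ggccatTCActgggc
Dagla, codon 472 of 1044: ggccacTCCttggga
Daglb, codon 443 of 669: gggcacAGCctagga
Pnpla2, codon 47 of 486: ggagccTCGgcaggg
Lipe, codon 736 of 1072: ggggacAGTgcaggt
On the same build the other members lie at chr14:8002902-8056763 (Abhd6, plus strand), chr2:150832493-150904741 (Abhd12, minus), chr19:10245265-10304877 (Dagla, minus), chr5:143464584-143505942 (Daglb, plus), chr4:115967145-116017926 (Faah, minus), chr5:21662901-21701396 (Napepld, minus), chr7:141455198-141460743 (Pnpla2, plus) and chr7:25379527-25398710 (Lipe, minus). Mgll, Abhd12 and Dagla each encode the pattern in more than 1 place, and the stretch shown is the one with a histidine codon before the serine. Faah encodes it at codons 217 and 218 of 579 but belongs to the amidase signature family, and Napepld, a metal-dependent enzyme of another fold, does not encode it in its 396 codons.

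Mgll lies on the plus strand of mouse chromosome 6 (chr6:88724412-88828360, GRCm38), with 10 annotated transcripts, 6 of them coding, and shares 90 exon bases with the opposite-strand gene Gm26588. The 250 bases before its most upstream start, from the RefSeq promoter table (GRCm38.p6, chr6:88724162-88724411, plus strand), are shown because Mgll is the member whose level differed by diet. The capitals mark a CATGTG, the core of the M-box that the melanocyte factor MITF can bind, and a CACGTG, the E-box bound by many helix-loop-helix factors.
Mgll promoter: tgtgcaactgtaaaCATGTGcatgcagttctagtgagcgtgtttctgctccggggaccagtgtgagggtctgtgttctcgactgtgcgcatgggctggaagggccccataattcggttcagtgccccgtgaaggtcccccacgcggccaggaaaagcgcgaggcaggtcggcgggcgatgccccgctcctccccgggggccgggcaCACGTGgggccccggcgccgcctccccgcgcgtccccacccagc
Searched on both strands of this window, CACGTG occurs in 6.02% and CATGTG in 12.3% of the 32851 promoter windows of the same length, and the 2 motifs do not overlap each other here. GGGCGG (in 32.7% of windows), TATAAA (12.4%), CCAAT (33.8%) and AGGTCA (14.0%) are not among these letters. The window is 68% G and C against a median of 52.4%, and it holds 23 CG steps against a median of 6. A match of letters is a description and was not tied to any binding measured here.

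Mgll was about 2.6 times higher in tumors of obese mice, and the obese and nonobese tumors did not overlap. The level was 138, 120 and 209 CPM in the 3 nonobese isotype tumors and 171, 125 and 194 CPM in the nonobese anti–PD-1 tumors. It was 408, 496 and 345 CPM in the obese isotype tumors and 356, 485 and 374 CPM in the obese anti–PD-1 tumors. The lowest obese tumor (345 CPM) was 1.65 times the highest nonobese tumor (209 CPM), and this lack of overlap is what the gene was chosen for.

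As group means, Mgll stood at 416 ± 75.6 CPM (SD, n = 3) in obese isotype tumors, 405 ± 69.9 CPM in obese anti–PD-1 tumors, 163 ± 35.2 CPM in nonobese anti–PD-1 tumors and 156 ± 46.8 CPM in nonobese isotype tumors. In that order the first and second groups, and the third and last, differed by less than their spread, while the step between the diets was larger than any of the SDs. The fitted log2 fold change for diet was 1.42 (SE 0.22) under isotype, 1.31 (SE 0.22) under anti–PD-1 and 1.37 (SE 0.16) as the mean of both. No test is given for these values because they are what the gene was chosen for. Over all genes tested, 0.496% had every one of the 6 obese tumors above every one of the 6 nonobese tumors, and nothing is read from Mgll being among them.

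**Figure D1:**
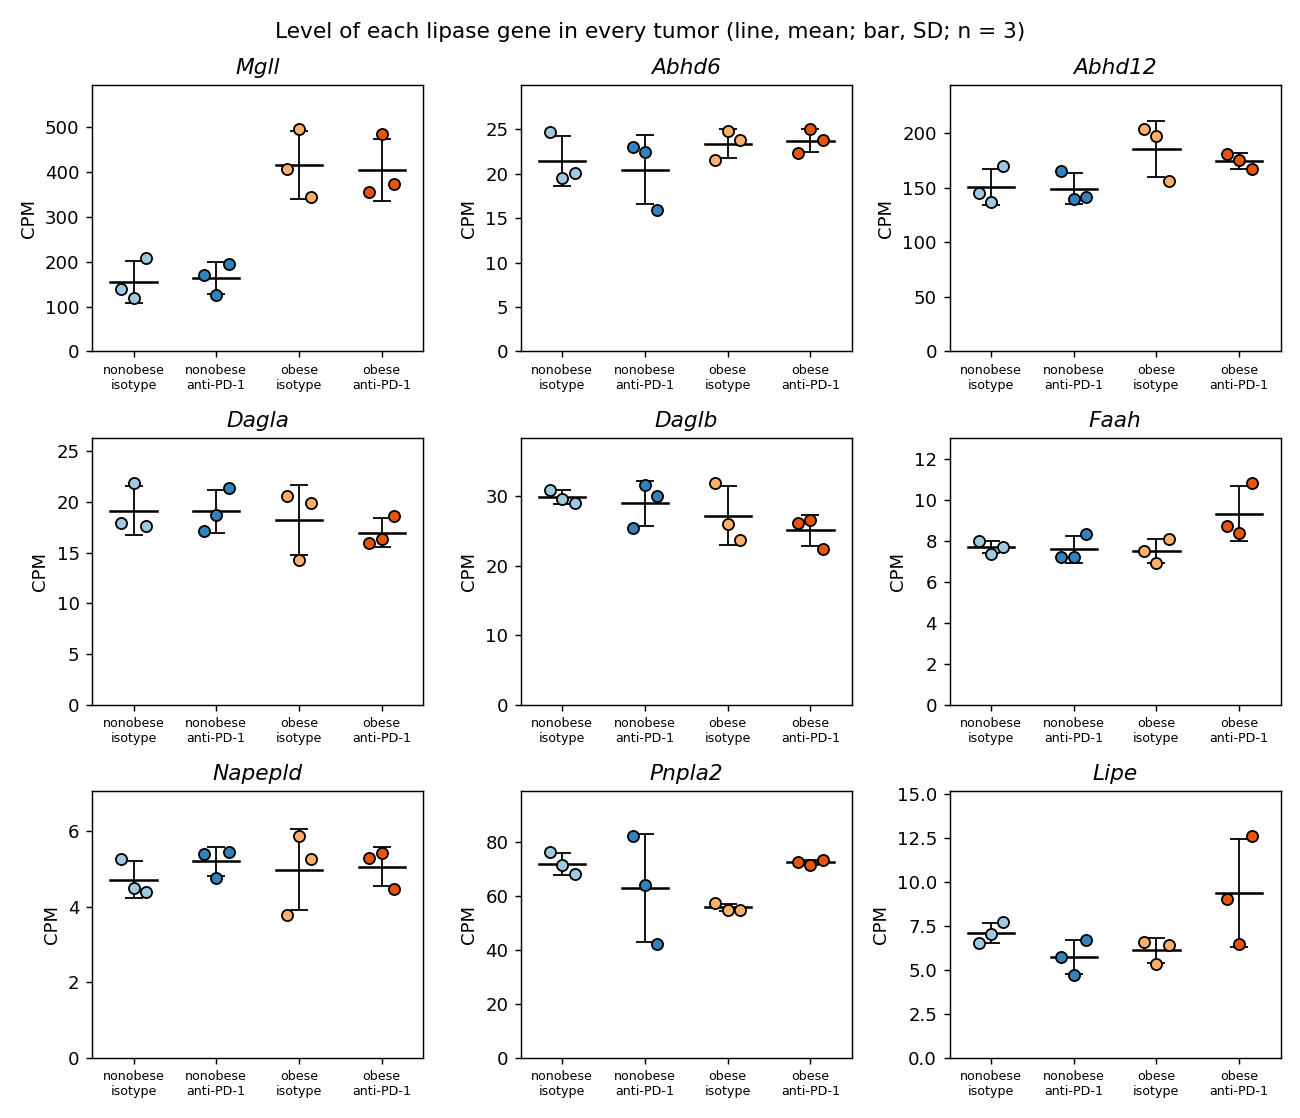
Level of each of the 9 genes in CPM (vertical axis, starting at 0) in every tumor, by group of diet and antibody; points are tumors, horizontal lines the group mean and bars the SD (n = 3). The 6 obese tumors lie between 345 and 496 CPM for Mgll, all above the nonobese tumors, whereas the obese and nonobese tumors overlap for the other 8 genes over both antibodies.

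The antibody contrasts were not used to choose Mgll. Anti–PD-1 against isotype gave a log2 fold change of 0.07 in nonobese tumors (SE 0.22, 95% interval -0.40 to 0.54, FDR = 0.977 by edgeR's quasi-likelihood F-test). The FDR is the P value adjusted over all 13095 genes tested. In obese tumors the same contrast was -0.04 (SE 0.22, 95% interval -0.51 to 0.43, FDR = 0.979). The 2 responses differed by -0.11 (SE 0.31, 95% interval -0.77 to 0.55, FDR = 0.908). A change of Mgll with the antibody was therefore not detectable, within intervals that reach -0.51 and 0.54 for the responses and -0.77 for their difference.

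The summed melanocyte markers of obese tumors (37647 to 42303 CPM) overlapped those of nonobese tumors (35505 to 40291 CPM). Adipocyte markers summed to 20.1 to 124 CPM in obese and 27.1 to 68.5 CPM in nonobese tumors. With a score of adipocyte markers as a covariate, the isotype diet difference of Mgll was 1.32 (SE 0.27), against 1.42 without it. Under anti–PD-1 it was 1.50 (SE 0.36) against 1.31, and the mean of both was 1.41 (SE 0.17) against 1.37. That score was itself lower in every obese isotype tumor than in any nonobese isotype tumor. Under anti–PD-1 it was higher in every obese tumor than in any nonobese tumor. The part of either cell type in the level of Mgll was not otherwise tested.

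Genes beside Mgll on the chromosome were compared by diet in the same way. Among the 10 nearest tested genes, 5 on each side and up to 619 kb away, the mean log2 fold change for diet ran from -0.36 for Gata2 to 0.28 for Podxl2, with a median of -0.0016. Gata2, a transcription factor of blood cells, and Podxl2 had unadjusted P values below 0.05 (10.4% of all genes did), and the lowest FDR among the 10 was 0.388. The closest, Abtb1, 7.55 kb away, gave -0.06 (SE 0.10), and 0 of the 10 separated obese from nonobese tumors (1.06% of all genes did).

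**Figure D2:**
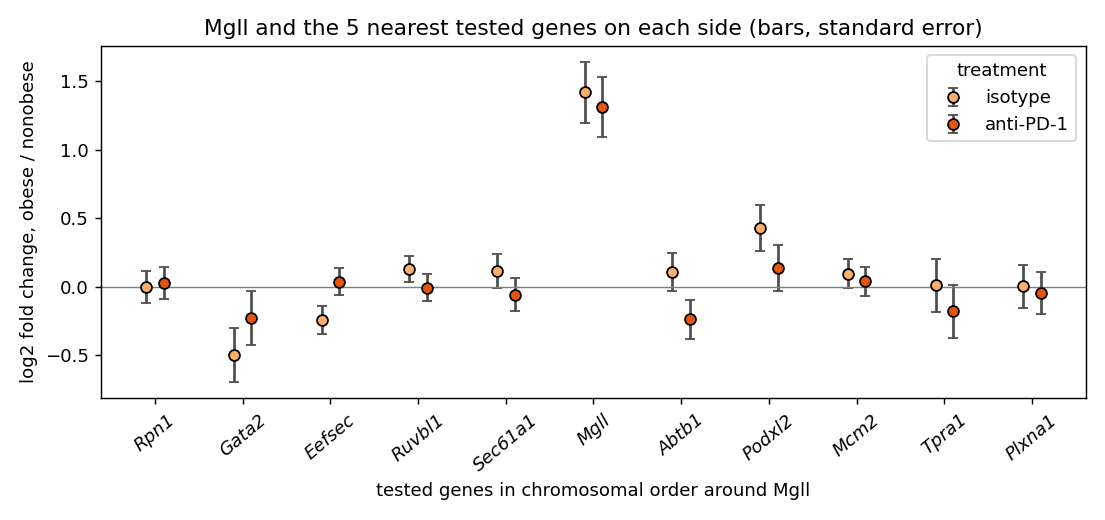
Log2 fold change of obese over nonobese tumors (vertical axis) for Mgll and the 5 nearest tested genes on each side in chromosomal order (horizontal axis), under isotype and under anti–PD-1; bars are standard errors. Mgll stands at 1.42 and 1.31, and the mean of both contrasts lies between -0.36 and 0.28 in the neighbors.

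Of the other 2-AG hydrolases, Abhd12 averaged about 1.2-fold higher in obese tumors without being called, and Abhd6 did not separate the diets. Abhd12 encodes a membrane enzyme that also hydrolyzes lysophosphatidylserine. Its level was 145, 137 and 169 CPM in nonobese isotype tumors, 165, 140 and 142 CPM in nonobese anti–PD-1 tumors, 203, 197 and 156 CPM in obese isotype tumors and 181, 175 and 167 CPM in obese anti–PD-1 tumors. Of the 6 obese tumors 4 lay above every nonobese tumor, and the groups overlapped.

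The mean diet difference of Abhd12 was 0.27 on the log2 scale (SE 0.09, 95% interval 0.08 to 0.45, FDR = 0.302). It was 0.30 under isotype (SE 0.12, FDR = 0.331) and 0.23 under anti–PD-1 (SE 0.12, FDR = 0.567). With a score of adipocyte markers as a covariate the isotype value was 0.18 (SE 0.14, FDR = 0.629), no longer with an unadjusted P below 0.05. The anti–PD-1 value was then 0.46 (SE 0.20, FDR = 0.724) and the mean 0.32 (SE 0.09, FDR = 0.364). Both had an unadjusted P below 0.05 in edgeR's F-test. The score separated the diets without overlap under each antibody, so the adjusted isotype and anti–PD-1 values cannot tell adipocyte RNA from diet. For the level of Abhd12, the 3 obese anti–PD-1 tumors lay above the 3 nonobese ones. With antibody treatment Abhd12 differed by -0.02 in nonobese and -0.09 in obese tumors (both SE 0.12, lower FDR of the pair 0.901).

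Abhd6, which encodes a membrane hydrolase of 2-AG facing the cytosol, ranged from 15.96 to 25.0 CPM over the 12 tumors. The nonobese tumors ran from 15.96 to 24.6 CPM and the obese tumors from 21.5 to 25.0 CPM. The mean diet difference was 0.17 (SE 0.11, 95% interval -0.06 to 0.40, FDR = 0.610). Ppt1 and Lypla2, thioesterases with reported activity on 2-AG, were tested with these genes and had group means of 62.9 to 65.8 CPM and 69.9 to 82.2 CPM. The remaining listed hydrolase, the carboxylesterase Ces1d, had at most 32 counts in a tumor and was not tested.

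Neither diacylglycerol lipase gene was called by diet or antibody. Dagla, the main diacylglycerol lipase of neurons, was 18.0, 21.9 and 17.6 CPM in nonobese isotype tumors, 17.1, 18.7 and 21.4 CPM in nonobese anti–PD-1 tumors, 20.6, 14.3 and 19.9 CPM in obese isotype tumors and 16.004, 16.3 and 18.6 CPM in obese anti–PD-1 tumors. Daglb, the form prominent in macrophages and liver, ran from 25.4 to 31.5 CPM in nonobese and from 22.4 to 32.0 CPM in obese tumors. The mean diet difference was -0.12 for Dagla (SE 0.11, FDR = 0.757) and -0.17 for Daglb (SE 0.09, FDR = 0.553). The exons of Daglb share 2309 bases with the neighboring gene Rac1 on the opposite strand. The libraries kept strand, but whether the counting used strand is not given in the sources used here, so the Daglb counts are uncertain in that respect.

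For the N-acylethanolamines, Napepld and Faah were both low. Napepld lay between 3.79 and 5.88 CPM in every tumor, and its mean diet difference was 0.01 (SE 0.15, 95% interval -0.31 to 0.34, FDR = 0.978). Faah was 7.997, 7.38 and 7.72 CPM in nonobese isotype tumors, 7.22, 7.21 and 8.34 CPM in nonobese anti–PD-1 tumors, 7.53, 6.92 and 8.12 CPM in obese isotype tumors and 8.74, 8.41 and 10.9 CPM in obese anti–PD-1 tumors. The 3 obese anti–PD-1 tumors lay above the other 9, by a small margin.

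In the fit, Faah in obese tumors differed by 0.31 with anti–PD-1 (SE 0.16, FDR = 0.697). Its diet difference was 0.30 under anti–PD-1 (SE 0.16, FDR = 0.579) and -0.03 under isotype (SE 0.16, FDR = 0.948). Without obese anti–PD-1 replicate 3 these differences under anti–PD-1 were 0.20 (response) and 0.17 (diet). With the adipocyte marker covariate the obese response of Faah was 0.15 (SE 0.27, FDR = 0.928). The score separated isotype from anti–PD-1 in obese tumors without overlap, so this value cannot tell adipocyte RNA from the antibody.

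Pnpla2 and Lipe, the lipases that act before Mgll in fat mobilization, did not separate the 6 obese from the 6 nonobese tumors, although Pnpla2 did so under isotype. Pnpla2 was 76.1, 71.5 and 67.9 CPM in nonobese isotype tumors and 57.25, 54.8 and 54.9 CPM in obese isotype tumors. Under anti–PD-1 it was 82.2, 63.9 and 42.1 CPM in nonobese tumors and 72.6, 71.4 and 73.0 CPM in obese tumors. The obese isotype tumors lay below both the nonobese isotype and the obese anti–PD-1 tumors without overlap, and the nonobese anti–PD-1 tumors spread over the whole range.

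The diet difference of Pnpla2 was -0.37 under isotype (SE 0.17, FDR = 0.384) and 0.21 under anti–PD-1 (SE 0.17, FDR = 0.769). Its response to anti–PD-1 was 0.38 in obese tumors (SE 0.17, FDR = 0.654) and -0.20 in nonobese tumors (SE 0.17, FDR = 0.929). Without nonobese anti–PD-1 replicate 1 the diet difference under anti–PD-1 was 0.45 and the nonobese response -0.44. Without nonobese anti–PD-1 replicate 3 they were 0.01 and 0.0017. The responses of Pnpla2 differed by 0.57 (SE 0.24, 95% interval 0.05 to 1.10), which did not hold over all genes (FDR = 0.342).

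Lipe was 6.55, 7.02 and 7.72 CPM in nonobese isotype tumors, 5.74, 4.73 and 6.69 CPM in nonobese anti–PD-1 tumors, 6.56, 5.32 and 6.45 CPM in obese isotype tumors and 9.02, 6.49 and 12.6 CPM in obese anti–PD-1 tumors. A pair of obese anti–PD-1 tumors stood above all others and the third did not. Under anti–PD-1 the diet difference was 0.72 (SE 0.24, FDR = 0.264), and in obese tumors the response to anti–PD-1 was 0.62 (SE 0.24, FDR = 0.540). The nonobese response was -0.31 (SE 0.24, FDR = 0.929), and the difference between the responses was 0.93 (SE 0.33, 95% interval 0.21 to 1.65, FDR = 0.268). Without obese anti–PD-1 replicate 3, the tumor highest in Lipe, the obese response was 0.34, the diet difference under anti–PD-1 0.43 and the difference between the responses 0.66, none with unadjusted P below 0.05. Lipe shares 453 exon bases with an antisense RNA, 4732471J01Rik, and had 76 to 277 counts in a tumor.

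Markers of several host cell types moved with the same contrast. Across all genes tested, 2.24% were called higher with anti–PD-1 in obese tumors and 2.31% lower in nonobese tumors. Of 9 adipocyte markers tested, 8 were called higher with anti–PD-1 in obese tumors, and 4 were called lower with anti–PD-1 in nonobese tumors. The remaining adipocyte marker, Adrb3, was not tested and was at 0 in all 3 obese isotype tumors. In obese tumors anti–PD-1 also went with more RNA of T and NK cell markers (4 of 6 tested called higher, sums of 5.25 to 6.90 CPM under isotype and 8.04 to 18.9 CPM under anti–PD-1). Skeletal muscle markers (3 of 10 called higher) summed to 12.3 to 139 CPM under isotype and 44.7 to 629 CPM under anti–PD-1. In nonobese tumors 7 of 10 fibroblast and 6 of 10 macrophage markers were called lower with anti–PD-1.

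With the adipocyte marker score as a covariate, the obese response of Lipe was 0.23 (SE 0.39, FDR = 0.924), its diet difference under anti–PD-1 0.32 (SE 0.39, FDR = 0.873) and the difference between its responses 0.34 (SE 0.58, FDR = 0.870). For Pnpla2 the same covariate gave an obese response of 0.77 (SE 0.25, FDR = 0.812) and a difference between responses of 1.22 (SE 0.39, FDR = 0.584). Its diet difference was then -0.58 under isotype (SE 0.19, FDR = 0.326) and 0.64 under anti–PD-1 (SE 0.27, FDR = 0.724). The score ran from -1.27 to -0.0027 in obese isotype and from 1.09 to 2.85 in obese anti–PD-1 tumors. In nonobese tumors it ran from 0.063 to 1.63 under isotype and from -1.73 to 0.17 under anti–PD-1. It thus separated the groups of both diet contrasts and of the obese response without overlap, while the nonobese groups overlapped. The score was not independent of these contrasts. The part of host cells in these values was not otherwise tested.

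**Figure D3:**
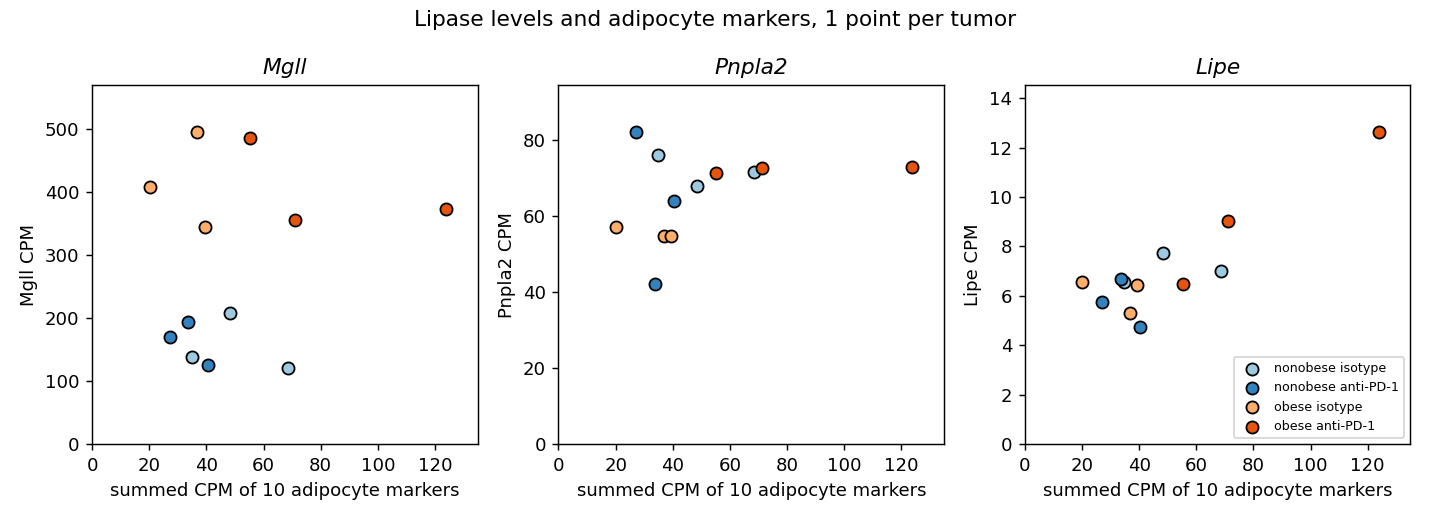
CPM of Mgll, Pnpla2 and Lipe (vertical axes, starting at 0) against the summed CPM of 10 adipocyte markers (horizontal axis), 1 point per tumor, colored by group. The marker sums of the obese anti–PD-1 tumors (55.3 to 124 CPM) lie above those of the obese isotype tumors (20.1 to 39.3 CPM) and overlap those of the nonobese isotype tumors (34.8 to 68.5 CPM).

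Counted over the members, 0 of the 8 genes other than Mgll was called by edgeR in obese against nonobese isotype tumors, where 1.37% of all genes tested were called. The count was also 0 of 8 under anti–PD-1 (4.25% of all genes) and 0 of 8 in the mean over both antibodies (0.512%). Over all 9 genes, 0 were called for anti–PD-1 in nonobese tumors (2.42%), 0 in obese tumors (2.44%) and 0 for the difference between the responses (5.76%). DESeq2 called 0 in each of these comparisons as well.

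By unadjusted P below 0.05 alone, edgeR gave 1 of 8 genes under isotype (Abhd12; 13.3% of all genes), 1 of 8 under anti–PD-1 (Lipe; 10.3%) and 1 of 8 in the mean (Abhd12; 10.4%). It gave 0 of 9 for anti–PD-1 in nonobese tumors (5.23%), 2 of 9 in obese tumors (Pnpla2 and Lipe; 7.57%) and 2 of 9 for the difference (the same pair; 12.9%). Groups without overlap numbered 1 of 8 under isotype (Pnpla2; 19.4% of all genes), 2 of 8 under anti–PD-1 (Abhd12 and Faah; 13.6%), 0 of 8 for all obese against all nonobese tumors (1.06%), 0 of 9 for anti–PD-1 in nonobese (11.2%) and 2 of 9 in obese tumors (Faah and Pnpla2; 12.4%). Each count rests on 8 or 9 genes, too few to tell its share from that of all genes, and nothing is read from these counts.

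The median log2 fold change of the 8 was -0.05 under isotype, against 0.01 over all genes tested, and 0.21 under anti–PD-1, against -0.01. For anti–PD-1 the median of the 9 was -0.02 in nonobese and 0.02 in obese tumors, against 0.02 and -0.01 over all genes. The diet comparisons and the antibody comparisons share tumors and are not independent of one another.

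**Figure D4:**
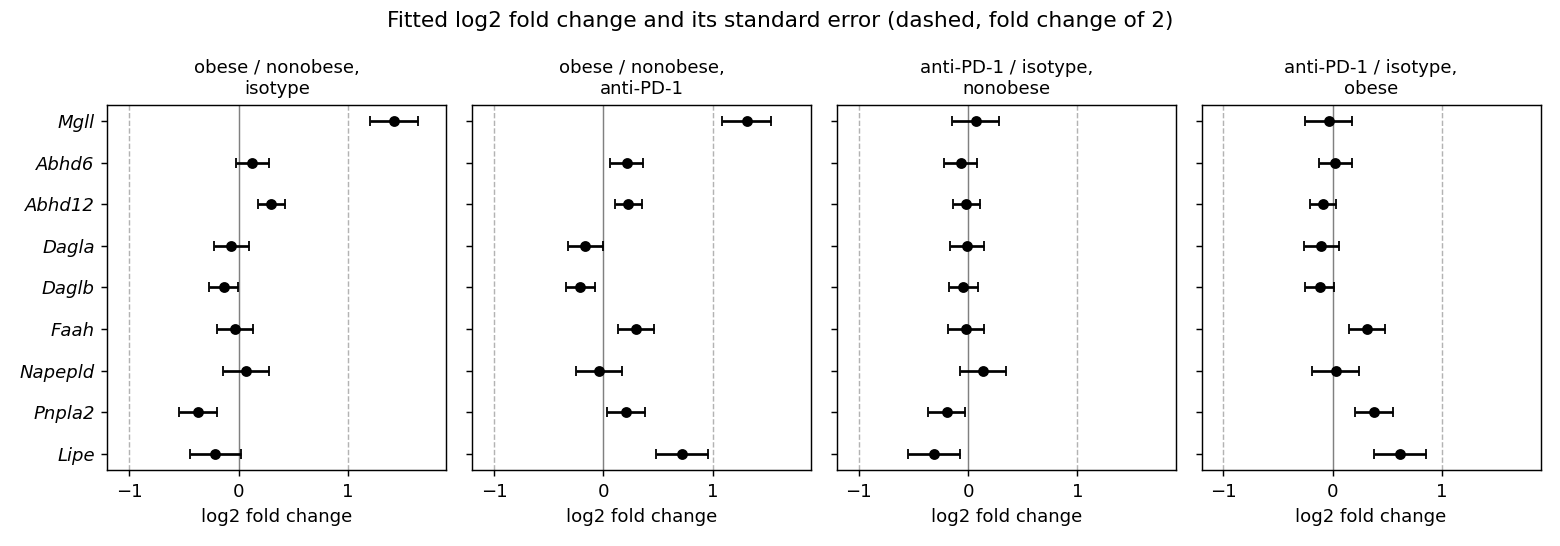
Fitted log2 fold change (horizontal axis) of the 9 genes in the 2 diet and the 2 antibody comparisons; points are edgeR estimates, bars standard errors and dashed lines a fold change of 2. Mgll lies beyond the dashed line in both diet panels, where it was chosen for its level, and the other points lie within it.

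Per kilobase of exon, Abhd12 and Mgll were the most abundant of the 9. Over the 12 tumors Abhd12 averaged 58.4 and Mgll 56.2 CPM per kilobase, followed by Pnpla2 at 21.7 and Abhd6 at 9.40. The lipases that make 2-AG were lower, at 3.20 for Dagla and 2.90 for Daglb, and Napepld, Lipe and Faah stood at 1.26, 1.20 and 1.03 CPM per kilobase.

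In nonobese isotype tumors Mgll (30.7 ± 9.22 CPM per kilobase, SD, n = 3) was below Abhd12 (53.3 ± 5.97), and in obese isotype tumors it was 82.0 ± 14.9 against 65.7 ± 9.16, with overlapping values. In obese anti–PD-1 tumors Mgll (70.2 to 95.6) lay above Abhd12 (59.2 to 64.1) without overlap, and in both nonobese groups it lay below. Over the 12 tumors the ranges of Dagla (2.48 to 3.82) and Daglb (2.35 to 3.34) overlapped, as did those of Napepld, Lipe and Faah. Within the nonobese groups Napepld stood above Faah without overlap, at 1.11 to 1.33 against 0.942 to 1.02 under isotype and 1.20 to 1.38 against 0.920 to 1.06 under anti–PD-1. Lengths were the union of annotated exons. Dividing by the longest transcript instead gave 71.5 for Mgll, 82.4 for Abhd12, 5.70 for Daglb, 1.91 for Lipe and 1.45 CPM per kilobase for Faah. This put Daglb above Dagla (3.26), and Lipe and Faah above Napepld (1.26). In obese anti–PD-1 tumors the means were then 102 for Mgll and 87.3 for Abhd12, with overlapping values.

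**Figure D5:**
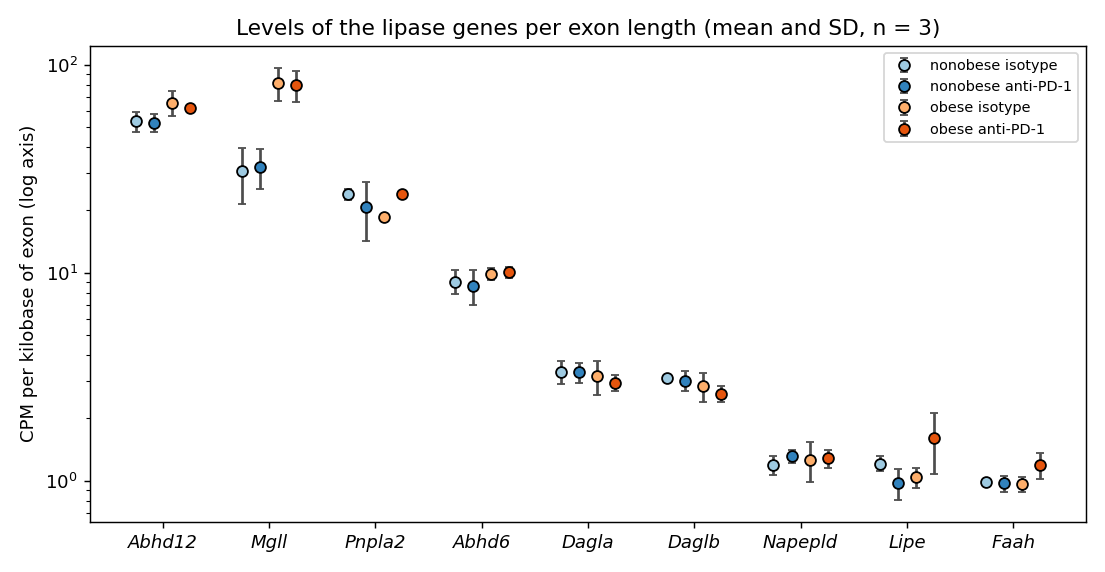
CPM per kilobase of exon (vertical log axis) of the 9 genes ordered by their mean, by group; points are means and bars the SD (n = 3). Mgll is the gene with a visible step by diet, from 30.7 and 32.2 in the nonobese to 82.0 and 79.8 in the obese groups.

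Around these enzymes, 108 further genes of endocannabinoid and acylglycerol metabolism were listed, of which 107 were in the table and 82 were tested. Under isotype, 0 of the 82 were called higher and 6 lower in obese tumors, and under anti–PD-1 10 were called higher and 0 lower. With anti–PD-1, 0 were called higher and 5 lower in nonobese tumors, and 8 higher and 1 lower in obese tumors. Across all genes, 0.244% were called higher and 1.12% lower under isotype, 3.69% and 0.565% under anti–PD-1, 0.115% and 2.31% with anti–PD-1 in nonobese tumors, and 2.24% and 0.206% in obese ones. Between the responses of the diets to anti–PD-1, 12 of the 82 were called different, all positive, where 4.93% of all genes were called positive.

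Of the 8 receptors listed, 3 had enough counts to be tested. Cnr1, the cannabinoid receptor of neurons, had at most 1 count, in 2 tumors, Gpr119 had 0 counts in all 12 tumors, and Trpv1 had counts in 1 tumor. Cnr2, the cannabinoid receptor of immune cells, averaged 0.3289 to 0.4999 CPM by group and was not called in any comparison. Trpv2, a cation channel, was the highest of the list at 92.6 to 102 CPM by group.

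Of the enzymes that oxidize endocannabinoids and arachidonic acid, Cyp2j6, an epoxygenase, was 210 ± 28.5 and 194 ± 23.4 CPM in nonobese isotype and anti–PD-1 tumors and 268 ± 32.9 and 246 ± 10.5 CPM in obese ones. Its mean diet difference was 0.35 (SE 0.09, FDR = 0.200). Alox5, the 5-lipoxygenase of leukocytes, was called lower in obese tumors under isotype (-1.77, SE 0.76) and higher under anti–PD-1 (2.28, SE 0.87), at 0.135 to 1.60 CPM by group. It was lowest in the nonobese anti–PD-1 tumors, where it was called lower than under isotype (-3.36, SE 0.84). Of 10 macrophage markers, 3 were called lower by diet under isotype (1.12% of all genes) and 8 higher by diet under anti–PD-1 (3.69%). With anti–PD-1 in nonobese tumors 6 of these markers were called lower (2.31%), and their part was not tested. Ptgs2, the inducible cyclooxygenase, was called lower with anti–PD-1 on both diets (-1.56, SE 0.59 in nonobese and -1.50, SE 0.57 in obese tumors). The lowest FDR of these calls was 0.350.

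Of the 8 genes listed for 2-AG synthesis, Dagla and Daglb included, 0 were called in any comparison, where 0.512% to 5.76% of all genes were called. Plcg2, a phospholipase C of blood cells, averaged 27.8 and 21.4 CPM in nonobese isotype and anti–PD-1 tumors and 21.2 and 26.8 CPM in obese ones. Its diet difference under isotype was -0.39 (SE 0.18, FDR = 0.376), without overlap, and the difference between its responses 0.71 (SE 0.25, FDR = 0.263).

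Among the genes for N-acylethanolamines, Naaa, the lysosomal acid amidase, was called higher in obese tumors under anti–PD-1 (1.02, SE 0.37, FDR = 0.337), from 4.02 to 8.17 CPM. Inpp5d and Ptpn22, phosphatases of blood cells, were called higher in the same comparison (1.05, SE 0.41 and 1.44, SE 0.53), and Inpp5d was called lower by diet under isotype (-1.01, SE 0.41). Abhd4 was the highest of the list, at 96.5 to 102 CPM by group. Markers of host cells moved with these genes. Under anti–PD-1, 8 of 10 macrophage and 5 of 6 tested T and NK cell markers were called higher in obese tumors (3.69% of all genes). So were 4 of 10 fibroblast markers. Their part was not tested.

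The only FDR values below 0.05 among the 82 were those of a lipid carrier, a lipid droplet gene and a fatty acid transporter. All 3 were in the diet comparison under anti–PD-1, where 0.382% of all genes had such a value. Under anti–PD-1, Fabp4, a fatty acid carrier of adipocytes and macrophages, was 37.5 ± 9.99 CPM in obese and 14.7 ± 3.05 CPM in nonobese tumors (log2 fold change 1.35, SE 0.24, FDR = 0.0393). Cidec, a protein of large lipid droplets, was 4.85 ± 3.22 against 0.336 ± 0.0987 CPM (3.82, SE 0.72, FDR = 0.0435), and Cd36, a fatty acid transporter, was 24.6 ± 1.50 against 10.9 ± 1.37 CPM (1.18, SE 0.22, FDR = 0.0435). Plin1 and Plin4, coats of the adipocyte droplet, were also called higher there (3.53, SE 0.83 and 2.54, SE 0.70). Under isotype the direction was the opposite for Cidec (-1.55, SE 0.69) and Plin4 (-1.66, SE 0.73), both called lower in obese tumors. Cidec and Plin1 are themselves among the adipocyte markers. Of these, 7 of 9 were called higher under anti–PD-1 (3.69% of all genes) and 4 of 9 lower under isotype (1.12%). With the adipocyte score as a covariate, edgeR gave 0 of all genes tested an FDR below 0.05 in the diet comparison under anti–PD-1 (887 with unadjusted P below 0.05), against 50 without the covariate and 270 by DESeq2 without it. By fold and unadjusted P together 445 genes were called with the covariate, against 557 without it. The difference was then 0.87 for Cd36 (SE 0.36, FDR = 0.724) and 0.51 for Fabp4 (SE 0.31, FDR = 0.772). For Cidec, itself part of the score, it was 1.00 (SE 0.88, FDR = 0.823). The SE of all 3 genes was larger than without the covariate. Every obese anti–PD-1 tumor scored at least 1.09, and no nonobese anti–PD-1 tumor scored above 0.17. This fit therefore cannot tell adipocyte RNA from diet, and nothing is read from the drop from 50 to 0.

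Lipases that act outside the cell were also called in these contrasts. Lpl, lipoprotein lipase, was 18.0 ± 7.50 CPM in nonobese isotype, 9.38 ± 2.36 CPM in nonobese anti–PD-1, 7.89 ± 2.47 CPM in obese isotype and 25.5 ± 9.07 CPM in obese anti–PD-1 tumors. It was called lower by diet under isotype (-1.19, SE 0.33, FDR = 0.223) and higher under anti–PD-1 (1.44, SE 0.33, FDR = 0.0952). Lipg, endothelial lipase, was called lower by diet under isotype (-1.35, SE 0.60) and higher with anti–PD-1 in obese tumors (2.00, SE 0.59), and Lipc, hepatic lipase, was called lower with anti–PD-1 in nonobese tumors (-1.71, SE 0.53), with group means of 0.251 to 1.32 CPM. The adipocyte and macrophage markers given above moved in these contrasts too, and their part was not tested. Dgat2, which makes triacylglycerol, was called for the difference between the responses alone (1.08, SE 0.36, FDR = 0.242). The lysosomal Lipa, the highest of that list, was 124 to 146 CPM by group and was not called.

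Of the ABHD and PNPLA families, 0 of 19 and 0 of 5 tested genes were called by diet or antibody, where 0.512% to 5.76% of all genes were called. Abhd15, which restrains fat breakdown in adipocytes, was 2.698, 2.65 and 2.61 CPM in nonobese isotype tumors and 1.07 to 1.78 CPM in the other 9 tumors. Its diet difference under isotype was -0.88 (SE 0.30, FDR = 0.279) and its nonobese response to anti–PD-1 -0.82 (SE 0.29, FDR = 0.841). Pnpla8, a mitochondrial and peroxisomal phospholipase, was 32.3 and 36.8 CPM in nonobese and 48.9 and 43.1 CPM in obese tumors, with a mean diet difference of 0.41 (SE 0.12, FDR = 0.245). Pnpla6 reached 74.4 CPM in 1 nonobese anti–PD-1 tumor against 4.12 and 9.15 CPM in the other two. Among genes that handle the products, Acsl3, which activates fatty acids, averaged 122 CPM under isotype and 138 CPM under anti–PD-1 in nonobese tumors, against 178 and 147 CPM in obese ones. Its diet difference under isotype was 0.54 (SE 0.15, FDR = 0.226).

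The genes whose log2 CPM followed Mgll most closely over the 12 tumors were Kcnj13 (Pearson r = 0.97), an inward-rectifier potassium channel, Gpr37 (0.96), Ldhd (0.94), a D-lactate dehydrogenase, Fbxo32 (0.92), a ubiquitin ligase subunit, and Tmod1 (0.92), which caps actin filaments. Kcnj13 was 22.9 to 49.5 CPM in nonobese and 86.5 to 191 CPM in obese tumors. The most opposite were Wipf3 (-0.92), Adam12 (-0.91), Chst14 (-0.91), Ppp1r16b (-0.90) and Gpsm1 (-0.89). Wipf3 was 47.4 to 60.3 CPM in nonobese and 26.2 to 37.3 CPM in obese tumors. All points share library, depth and the diet groups, which set most of the variance of Mgll.

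With each group's mean removed, r with Mgll was 0.90 for Kcnj13, 0.80 for Gpr37, 0.75 for Ldhd, 0.44 for Fbxo32 and 0.36 for Tmod1. Among the members, Abhd12 was closest to Mgll (r = 0.83, place 32 of 13094 genes, 0.64 with group means removed). The other 7 ranged from -0.52 for Daglb to 0.41 for Abhd6. The place of Abhd12 was 174 with group means removed and ran from 20 to 68 with a tumor left out. Of the 36 pairs of members, 2 had r above 0.8, Mgll with Abhd12 and Faah with Lipe (0.88, and 0.83 with group means removed).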

How the data were processed

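RNA from 12 frozen B16-F10 tumors was sequenced after stranded mRNA library preparation. Per the submitters' processing notes and methods, the authors checked reads with FastQC 0.11.5, aligned them with STAR 2.7.0f to mm10 and counted them per gene with HTSeq 0.9.1; the deposited values are raw counts per gene, with no normalization. Whether the counting used strand is not given in the sources used here. Groups came from the sample titles.

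Counts were fitted with edgeR 4.0.16 in R 4.3.3 (TMM scaling, filterByExpr, quasi-likelihood F-test in its legacy form) with 4 group means over all 12 tumors (8 residual degrees of freedom), and the 9 genes were read from that fit. Calls follow the study's rule, a fold above 2 with P below 0.05 before adjustment; FDR is the Benjamini-Hochberg value over 13095 genes. SE was the log2 fold change divided by the square root of F. CPM values use TMM library sizes, and correlations a prior count of 2. Named genes outside the 9 were those called or leading their list in level or diet difference; Ppt1, Lypla2, Ces1d, Cnr1, Gpr119, Trpv1 and Plcg2 were added after their values were seen. The calculations were tested on simulated counts. Alternatives were DESeq2 1.42.0, other scaling, filters and dispersion settings, the replicate block, an adipocyte covariate and each tumor left out. The members and gene lists were chosen with earlier results of these data known. Lengths came from GENCODE M21 and RefSeq tables of GRCm38, the authors' build; the symbol Gk could not be matched uniquely. Highest correlation between tumors of a group was 0.991, and no columns were identical. Total counts of 14022929 to 33871843 per tumor put the members at 75 to 9866 counts, and the number of tumors per group limits the precision.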

Additional observations from a re-analysis of the deposited data

Results flagged for a closer look

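Among the 9 genes, 2 gave a difference between the anti–PD-1 responses of obese and nonobese tumors at an unadjusted P below 0.05 (edgeR, 3 tumors per group). For Lipe the difference was 0.93 on the log2 scale (SE 0.33, FDR = 0.268), and for Pnpla2 it was 0.57 (SE 0.24, FDR = 0.342). Both fail the correction over all genes tested, where 12.9% had a P below 0.05 for the same difference. In obese tumors the mean level of Pnpla2 was 55.6 CPM under isotype and 72.3 CPM under anti–PD-1, with all 3 anti–PD-1 tumors above the 3 isotype tumors. The Lipe means were 6.11 and 9.38 CPM, with 2 of 3 tumors above. The adipocyte markers moved with this contrast, as described above. With their score as a covariate the difference between the responses was 0.34 (SE 0.58) for Lipe and 1.22 (SE 0.39) for Pnpla2. With a tumor left out it ran from 0.66 to 1.15 for Lipe and from 0.39 to 0.83 for Pnpla2.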

How the results depend on the processing

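The diet differences of Mgll lay between 1.15 and 1.67 with a tumor left out and between 1.30 and 1.50 otherwise; their sign is fixed by the choice of the gene. The count of members called stayed at 0 in every comparison except the difference between responses. There it was 1 with the adipocyte covariate (Pnpla2, 1.22), and 0 to 1 with a tumor left out. The call was Lipe, at 1.09 without nonobese anti–PD-1 replicate 3, 1.00 without obese isotype replicate 1 and 1.15 without obese anti–PD-1 replicate 2, while the same difference of Lipe was 0.66 without obese anti–PD-1 replicate 3. The cause was not tested. Of 1054 other member values recomputed, 65 had another sign, 0 of those with P below 0.05. Of the 10 genes most and least like Mgll, 5 to 9 were shared with a tumor left out and 1 with deviations from the group means, which remove the diet difference by construction.

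The tumors share replicate numbers but are not paired by the labels: same-numbered tumors correlated at 0.13 on average (lowest -0.26), and 6 of 12 correlated best with their own number. With the replicate block, 0 members were called in each comparison, and genes called over the whole table moved from 179 to 206 (diet, isotype), 557 to 573 (diet, anti–PD-1), 67 to 94 (mean), 317 to 360 and 320 to 348 (anti–PD-1, nonobese and obese) and 754 to 769 (difference). Requiring 10 counts in every tumor gave 72, 313, 20, 171, 160 and 451, and 1 count in all tumors together gave 326, 791, 191, 456, 508 and 1022. With a tumor left out they ranged over 87 to 409 (highest without nonobese isotype replicate 1, lowest without obese isotype replicate 2), 384 to 756, 60 to 143, 198 to 511, 223 to 576 and 612 to 936. The genes with an FDR below 0.05 for diet under anti–PD-1, 50 in number, ranged from 2 (without nonobese anti–PD-1 replicate 2) to 214 (without obese anti–PD-1 replicate 1). Every member had at least 75 counts in each tumor, and the SE of the isotype diet difference was 0.21 for Napepld and 0.22 for Mgll.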
